A study of Mus musculus with 7 samples.

Results

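B cell identity genes are the genes whose products build and tune the B cell receptor, mark the B cell surface and keep up the B cell transcription programme. The set described here held 9 such genes: Cd79a, Cd79b, Cd22, Blnk, Ms4a1, Cd37, Pou2af1, Spib and Ikzf3. They were found on the arrays as the probe sets whose platform annotation names a single listed gene, which gave 14 probe sets of 34945, for 9 genes of 18193. A probe set is a group of short probes on the array whose signals are combined into 1 value.

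Expression was measured with Affymetrix mouse arrays in total RNA from terminal ileum, where the small intestine ends, of male C57BL6J mice aged 8 weeks. The penicillin group held 4 mice given low-dose penicillin, 6.7 mg/L, since birth. The control group held 3 mice that had received no antibiotic. All 7 mice were weaned onto chow at 4 weeks and were moved at 6 weeks to a high fat diet, with fat supplying 45% of the calories. The labels call the samples biological replicates and give no litter or cage, so effects of litter or cage and of penicillin cannot be told apart. The growth text of the labels names liver, whereas the source label names terminal ileum.

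In penicillin mice Ikzf3 fell by 0.76 on the log2 scale, 1.69-fold, and was the 1 member that passed in limma, a linear model that borrows the spread across genes, at a Benjamini-Hochberg adjusted p under 0.05 over all genes tested (0.0481). Genes called lower made up 0.088% of all genes tested. That call was lost in 6 of the 7 fits that left out 1 array, and the other 2 probe sets of Ikzf3 differed by -0.05 and -0.021. Cd79b, a signalling chain of the B cell receptor, and Pou2af1, a B cell transcription coactivator, differed by -0.74 and -0.68 with no overlap between the groups, and neither passed. Blnk, Spib, Cd37 and Cd22 differed by -0.27 to -0.06, with overlapping groups. Cd79a and Ms4a1 lay near the bottom of the arrays' scale and were left out of that test as too weak.

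B cells sense antigen with a receptor made of a membrane immunoglobulin and the paired chains CD79a and CD79b, whose tails pass the signal through kinases to the adaptor BLNK. CD22 dampens that signal, and CD20 (Ms4a1) and CD37 sit in the membrane of mature B cells. Pou2af1, Spib and Ikzf3 act in the nucleus. In the ileum B cells gather in Peyer's patches and isolated follicles, while the lamina propria between the villi holds mainly plasma cells, which secrete IgA and have shut down much of the B cell programme. Several of the genes are not private to B cells: Ikzf3 is also made by T cells and natural killer cells, Pou2af1 by plasma cells, Blnk by macrophages, Cd37 by other leukocytes and Spib by the M cells of the follicle epithelium. The samples were pieces of whole tissue, so fewer cells of a type and less RNA per cell cannot be told apart.

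Pou2af1 works by binding, together with the factors Oct-1 and Oct-2, to the octamer ATGCAAAT, a motif known from immunoglobulin promoters. The 250 bases before the annotated start are shown for 2 of the 3 members that carry that octamer or its last 7 letters, TGCAAAT. The window of Cd79a is shown because it carries AGGAAGT, a form of the site bound by ETS factors, the family to which Spib belongs. Capitals mark these motifs, searched on both strands, and the octamer reads ATTTGCAT on the other strand. The sequences are from RefSeq, build GRCm38.p6, and run along each gene's own strand.
Pou2af1, chr9:51213440-51213689, plus strand: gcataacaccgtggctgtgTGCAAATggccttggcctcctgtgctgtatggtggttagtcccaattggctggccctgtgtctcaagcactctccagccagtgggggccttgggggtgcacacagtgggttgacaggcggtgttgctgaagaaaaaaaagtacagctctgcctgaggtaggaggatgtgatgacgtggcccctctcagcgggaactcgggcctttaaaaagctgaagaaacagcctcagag
Blnk, chr19:40994222-40994471, minus strand: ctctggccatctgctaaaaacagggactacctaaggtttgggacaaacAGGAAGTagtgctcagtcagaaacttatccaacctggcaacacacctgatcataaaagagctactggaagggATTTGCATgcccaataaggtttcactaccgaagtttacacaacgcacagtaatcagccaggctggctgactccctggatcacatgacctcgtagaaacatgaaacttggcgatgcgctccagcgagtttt
Cd79a, chr7:24897247-24897496, plus strand: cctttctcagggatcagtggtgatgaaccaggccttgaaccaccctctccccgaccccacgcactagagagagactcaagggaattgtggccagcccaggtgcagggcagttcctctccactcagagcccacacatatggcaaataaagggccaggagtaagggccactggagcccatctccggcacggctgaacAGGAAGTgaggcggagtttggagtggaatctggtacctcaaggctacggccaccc

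The RefSeq table held windows for 6 of the 9 members: Pou2af1, Blnk, Cd79a, Spib, Cd37 and Cd22. The full octamer was in 1 of these 6 windows, that of Blnk, on the strand opposite to the gene, and in 1.6% of all 32851 windows. Every full octamer also holds the shorter TGCAAAT, which was in 3 of the 6, those of Blnk, Pou2af1 and Spib, and in 3.56% of all windows. AGGAAGT was in 3 of the 6, those of Blnk, Cd79a and Cd37, and in 7.69% of all windows. A match describes the letters and is not a measured binding site.

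Arrays had nearly the same distribution, with medians between log2 5.43 and 5.45, and values from 2.50 to 14.7. Of the 7 arrays, control replicate 3 was the most distant. The leading principal component of the genes tested carried 48.0% of their variance, with that array at -30.0 and the others between -2.90 and 17.6. Car1, a carbonic anhydrase of colon epithelium, was at log2 14.1 in that array and between 5.11 and 10.8 in the rest. Aqp8, also of the colon list described below, was at 8.27 there and at 3.86 to 4.29 in the rest. The other tested genes of that list did not rise in this way. Car4 and Slc26a3 varied little among the control mice (SD 0.052 and 0.12). Ceacam1 was at 13.65 in control replicate 3, below the 13.76 and 13.87 of the other controls. Among tested members, named list genes and list medians, values that moved by over 1.5 times without control replicate 3 are given without that array as well. Penicillin replicate 3 lay at 17.6, the other end of that component, and held the lowest penicillin value for 5 of the 9 members.

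Ikzf3 encodes Aiolos, a zinc finger factor of the Ikaros family that regulates lymphocyte genes and is known for its high level in mature B cells. Its strongest probe set, 1436649_at, read log2 6.03, 5.79 and 5.65 in control mice and 5.0, 5.05, 5.13 and 5.09 in penicillin mice. The groups were separated by 0.52, and the penicillin mice lay within a narrow band. The means were 5.82 ± 0.195 (SD, n = 3) and 5.07 ± 0.056 (SD, n = 4), a difference of -0.76 ± 0.092 (SE) with a 95% interval of -0.97 to -0.54. Ikzf3 passed in limma over 13644 genes at an adjusted p of 0.0481 and was the last of 13 genes called, 12 of them lower. Genes called higher made up 0.00733% of all genes tested.

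The call of Ikzf3 lay at the edge of the threshold, while its difference kept its sign. With each array left out in turn its difference stayed between -0.84 and -0.65. The limma adjusted p was 0.0435 without control replicate 3. It was 0.156 and 0.154 without control replicates 1 and 2. It was 0.189, 0.108, 0.131 and 0.161 without penicillin replicates 1, 2, 3 and 4. In the fit over all 34945 probe sets, where 0.0429% were called lower, the adjusted p of 1436649_at was 0.0575.

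The other probe sets of Ikzf3 did not show this difference. Probe set 1441088_at read 4.37, 4.37 and 4.45 in control mice and 4.31, 4.27, 4.24 and 4.55 in penicillin mice, with a difference of -0.05 and a 95% interval of -0.24 to 0.14. Probe set 1453378_at read 3.35, 3.32 and 3.54 in control mice and 3.15, 3.47, 3.45 and 3.45 in penicillin mice, with a difference of -0.021 and a 95% interval of -0.24 to 0.20. Both were weak, at means of log2 4.36 and 3.39, where the 25th percentile of gene means, the limit for weak genes, is 4.59. With the 3 probe sets averaged the difference of Ikzf3 was -0.28 (limma adjusted p = 0.188). The annotation gives no accession for 1436649_at, and which transcripts each probe set reads was not tested.

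**Figure D1:**
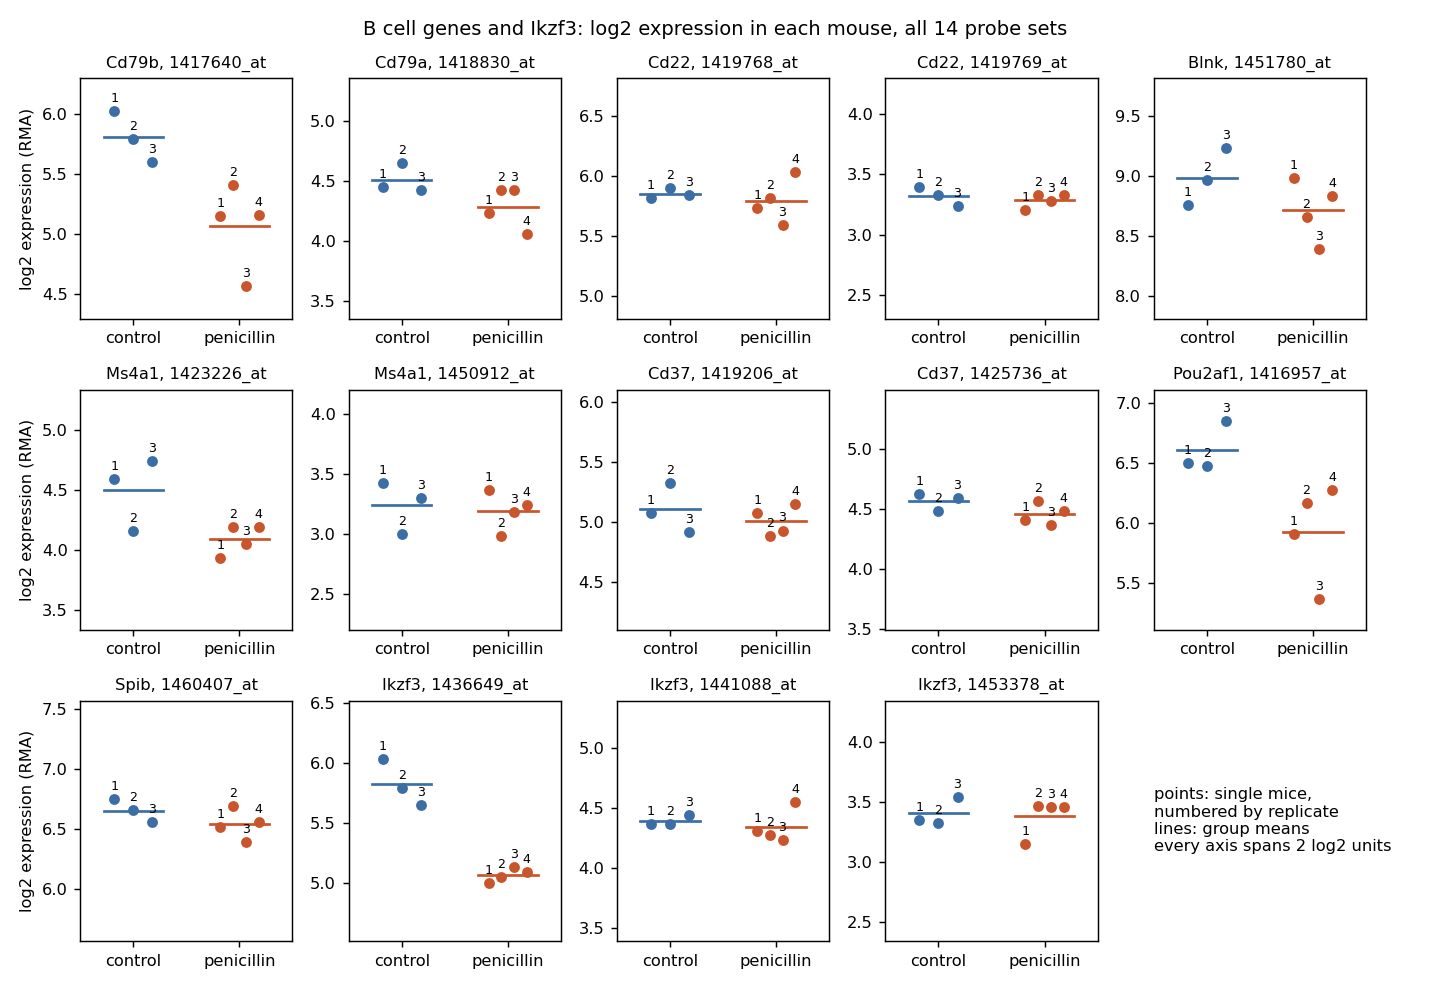
Log2 expression in every mouse for all 14 probe sets, with the group on the horizontal axis, points numbered by replicate and lines at the group means; every vertical axis spans the same number of log2 units. The control and penicillin points are apart for Ikzf3 1436649_at, Cd79b and Pou2af1, and overlap or touch in the other 11 panels.

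Cd79b, the beta signalling chain of the B cell receptor, read log2 6.03, 5.79 and 5.60 in control mice and 5.15, 5.41, 4.57 and 5.16 in penicillin mice. Every penicillin mouse was below every control mouse, with penicillin replicate 3 lowest. The difference was -0.74 ± 0.19 (SE, 1.67-fold) with a 95% interval of -1.19 to -0.28, and it did not pass in limma (adjusted p = 0.301). It was -0.57 without penicillin replicate 3 and -0.84 without control replicate 3.

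Its partner chain Cd79a read 4.45, 4.65 and 4.42 in control mice and 4.23, 4.42, 4.42 and 4.06 in penicillin mice. The lowest control value equalled the highest penicillin value. In the fit over all probe sets the difference was -0.22 ± 0.10 (SE) with a 95% interval of -0.46 to 0.018 (limma adjusted p = 0.570). Cd79a had a mean of log2 4.38, under the limit of 4.59. The difference between the changes of both chains was not tested.

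Cd22, a sialic acid binding receptor that restrains B cell receptor signalling, read 5.82, 5.90 and 5.84 in control mice and 5.73, 5.82, 5.59 and 6.04 in penicillin mice on probe set 1419768_at. The penicillin mice spanned the control values on both sides. The difference was -0.06 with a 95% interval of -0.29 to 0.17 (limma adjusted p = 0.820). The other probe set, 1419769_at, lay at the bottom of the scale with values from 3.21 to 3.39 and differed by -0.034.

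Blnk, the adaptor that links the receptor's kinases to calcium signalling, read 8.76, 8.97 and 9.24 in control mice and 8.99, 8.66, 8.39 and 8.84 in penicillin mice. Of the 6 members with a window only Blnk carries the full octamer, and any link between motif and expression was not tested. The groups of Blnk overlapped. Its difference of -0.27 ± 0.16 (SE) had a 95% interval of -0.64 to 0.10 (limma adjusted p = 0.554). Its highest value was in control replicate 3 and its lowest in penicillin replicate 3. Without control replicate 3 the difference was -0.15, without penicillin replicate 3 it was -0.16, and without both it was -0.037.

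Ms4a1 encodes CD20, a membrane protein of mature B cells that is lost in plasma cells. Probe set 1423226_at read 4.59, 4.16 and 4.74 in control mice and 3.93, 4.19, 4.05 and 4.19 in penicillin mice. The groups overlapped only through control replicate 2, which lay below penicillin replicates 2 and 4. The difference was -0.40 ± 0.14 (SE) with a 95% interval of -0.72 to -0.089 and a limma adjusted p of 0.495 over all probe sets. The other probe set, 1450912_at, ran from 2.99 to 3.42 and differed by -0.045. Both Ms4a1 probe sets were under the limit for weak genes.

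Cd37, a tetraspanin of leukocyte membranes that is high in B cells, read 5.08, 5.33 and 4.92 in control mice and 5.08, 4.88, 4.93 and 5.15 in penicillin mice on probe set 1419206_at. The groups overlapped over most of their range. The difference was -0.099 with a 95% interval of -0.35 to 0.15 (limma adjusted p = 0.725). It was -0.19 without control replicate 3 and 0.0099 without control replicate 2, so its sign rests on the latter array. The weaker probe set, 1425736_at, differed by -0.11 with overlapping groups.

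Pou2af1, also called OCA-B or Bob1, is the coactivator of the octamer described above and is needed for germinal centres. It read 6.50, 6.47 and 6.85 in control mice and 5.91, 6.16, 5.37 and 6.27 in penicillin mice. The groups did not overlap, and the gap between them was 0.21. The difference was -0.68 ± 0.21 (SE, 1.60-fold) with a 95% interval of -1.18 to -0.18 (limma adjusted p = 0.365). It was -0.56 without control replicate 3, -0.50 without penicillin replicate 3 and -0.37 without both, so that the size depends on the arrays at the ends of the leading principal component.

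Spib, an ETS factor of B cells, plasmacytoid dendritic cells and M cells, read 6.74, 6.65 and 6.56 in control mice and 6.51, 6.69, 6.39 and 6.56 in penicillin mice. Its difference was -0.11 ± 0.082 (SE) with a 95% interval of -0.31 to 0.077 (limma adjusted p = 0.597). The groups overlapped, and the interval does not hold a difference of the size measured for Ikzf3. It was -0.065 without penicillin replicate 3 and -0.069 without control replicate 1.

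**Figure D2:**
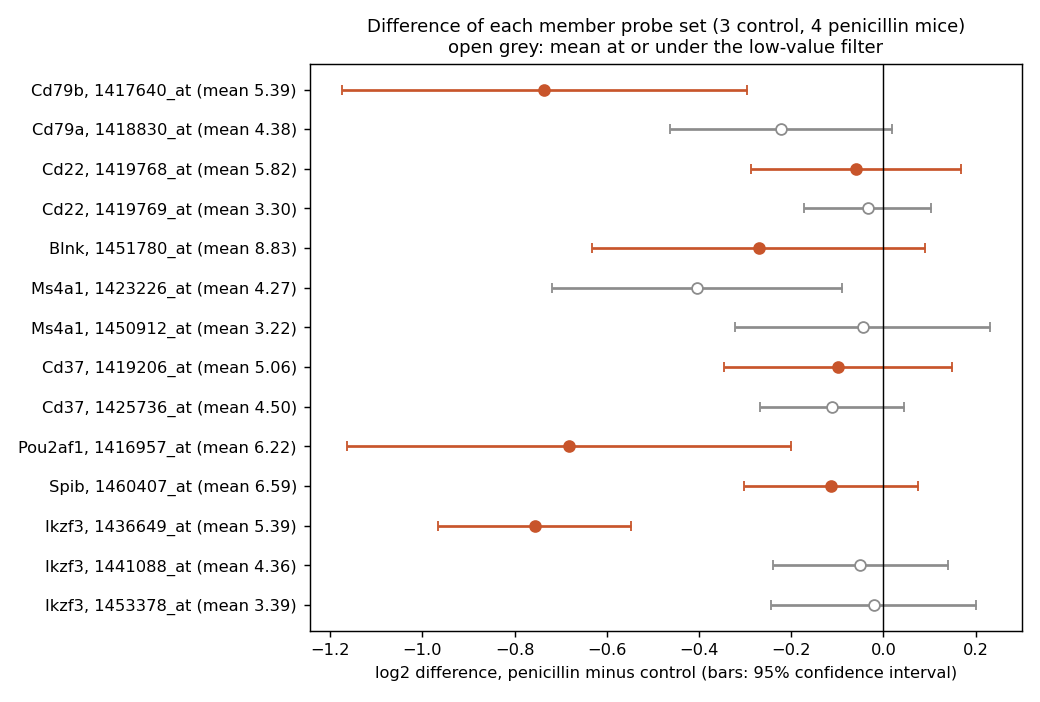
Difference of each member probe set on the log2 scale, penicillin minus control, with 95% confidence intervals from the fit over all probe sets; open grey points have a mean at or under the limit for weak genes. The intervals of Ikzf3 1436649_at, Cd79b, Pou2af1 and Ms4a1 1423226_at lie wholly below 0, and the other 10 reach it.

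Counted over the 7 members tested, 1 was called lower and 0 higher in limma. At an unadjusted p under 0.05 there were 3, Ikzf3, Cd79b and Pou2af1, all lower, where 6.35% of all genes tested were lower by that rule. The same 3 had groups that did not overlap, where 6.05% of all genes tested did so with lower values in penicillin mice. Without the limit for weak genes all 9 members had lower values in penicillin mice, as did 51% of all 18193 genes, and the members' median was -0.27 against -0.0025 for all genes. In that fit 0 of the 9 passed in limma after adjustment, with Ikzf3 at an adjusted p of 0.0524, where 0.055% of all genes were called lower. Ms4a1 joined the 3 at an unadjusted p under 0.05, where 5.18% of all genes were lower by that rule. Members were chosen with earlier results of these data known, so these counts and the probe set counts below only describe the set.

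Of the 14 probe sets, 14 had lower means in penicillin mice, against 49.1% of all probe sets. Probe sets annotated to 1 gene are not counted as separate evidence, and which transcripts each reads was not tested. By level, 7 of the 14 were at or under the limit of log2 4.59, with means from 3.22 to 4.50, and their differences ran from -0.40 to -0.021. The deposited values carry no detection call, so weak signal could not be told from background probe set by probe set. The mean of the 9 genes, each at its strongest probe set, ran from 5.97 to 6.00 in control mice and from 5.43 to 5.71 in penicillin mice. The lowest of these means was in penicillin replicate 3. Such a separation was not particular to the 9 genes, since most list means described below were also apart and lower. For Paneth cell genes the list mean ran from 11.95 to 12.09 in control mice and from 11.54 to 11.72 in penicillin mice. The means of the macrophage and dendritic cell, enterocyte and colon lists overlapped.

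**Figure D3:**
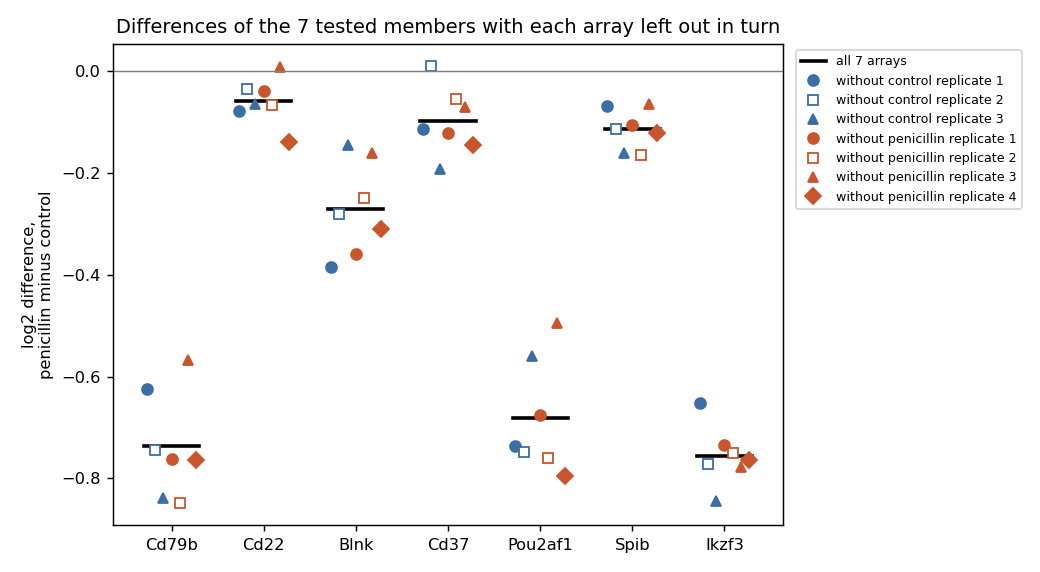
Log2 difference, penicillin minus control, of the 7 tested members with all arrays (black bars) and with each array left out in turn (blue for a control array, orange for a penicillin array). Ikzf3 stays between -0.84 and -0.65, while Cd37 and Cd22 reach values just above 0 when control replicate 2 or penicillin replicate 3 is left out.

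The rest of the B cell receptor pathway was read from a list of 22 genes, 18 of which were tested. None passed in limma in either direction. At an unadjusted p under 0.05, 3 were lower and 1 higher, where 867 and 596 of all 13644 genes tested were. The same background holds for the unadjusted counts of the lists below. Values were lower in penicillin mice for 12 of the 18, where 54.7% of all genes tested had lower values. The median was -0.075, against -0.014 for all genes tested. Rasgrp3, a Ras activator downstream of the receptor, differed by -0.42 ± 0.089 and Prkcb, the protein kinase C of B cell signalling, by -0.29 ± 0.097 (SE; limma adjusted p = 0.175 and 0.397). Cr2, the complement receptor of B cells and follicular dendritic cells, was under the limit, at 3.81 in both groups.

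Among the B cell surface, cytokine and homing receptors 11 of 20 were tested and 7 were too weak, Cxcr5, Ccr7, Cd180, Fcer2a, Fcrl1, Fcrla and H2-Ob. None passed in limma, 10 of the 11 had lower values, and the median was -0.11. Tnfrsf13b, the TACI receptor for the survival factors BAFF and APRIL, read 5.28, 5.44 and 5.36 in control mice and 4.78, 4.94, 4.61 and 4.83 in penicillin mice. Its groups were apart and it differed by -0.57 ± 0.084 (SE, limma adjusted p = 0.0862). Cd24a, which epithelium also makes, differed by -0.17, or -0.10 without control replicate 3, and Cxcr5, the receptor that draws B cells into follicles, was at 3.72 and 3.78.

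Of the 13 B cell transcription factors listed 11 were tested, 0 passed in limma and 4 were lower at an unadjusted p under 0.05. Values were lower for 8 and higher for 3, with a median of -0.099, or -0.065 without control replicate 3. Irf8, which is also high in dendritic cells and macrophages, differed by -0.64 ± 0.098 and Mef2c by -0.46 ± 0.16 (SE; limma adjusted p = 0.0911 and 0.407). Pax5, the factor that commits cells to the B lineage, averaged 4.70 in the control and 4.76 in the penicillin group, with a difference of 0.067. Cr2, Cxcr5, Cd79a and Ms4a1 were under the limit for weak genes, and Pax5 was a little above it. Several defining B cell markers thus had weak signal in these samples. The 9 genes are therefore described by name and not as a measure of B cell number.

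None of the 4 other Ikaros family genes passed in limma, and the differences of 2 of them were close to 0. Values were lower for 3 and higher for 1, with a median of -0.25, or -0.15 without control replicate 3. Ikzf1, the founding member, read 6.04, 6.14 and 5.91 in control mice and 5.36, 5.46, 5.22 and 5.75 in penicillin mice. Its groups did not overlap, and it differed by -0.58 ± 0.12 (SE, adjusted p = 0.185). Ikzf2, known from regulatory T cells, differed by -0.46 ± 0.17 (SE, limma adjusted p = 0.421), or -0.29 without control replicate 3. Ikzf4 and Ikzf5 differed by 0.0011 and -0.042, with overlapping groups, and by 0.055 and -5.2e-04 without control replicate 3.

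Germinal centre genes, 4 of 7 tested, had a median of -0.15, or -0.092 over the 6 on the array without the limit for weak genes, with 0 passing in limma and 2 lower at an unadjusted p under 0.05. Values were lower for 3 and higher for 1, and Basp1 and Fas differed by -0.29 and -0.25. Plasma cell genes, 11 of 12 tested, had a median of -0.26, or -0.41 without control replicate 3, with 0 passing in limma, 5 lower and 1 higher at an unadjusted p under 0.05. Of the 11, 10 had lower values. Mzb1, an antibody secretion factor, differed by -0.99 ± 0.14 and Jchain, which joins the units of IgA, by -1.0 ± 0.15 (SE; limma adjusted p = 0.0862 and 0.0891). The mean of the plasma cell list ran from 7.86 to 7.95 in control mice and from 7.42 to 7.58 in penicillin mice.

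Other cell types were read from lists of their markers. Genes made by all leukocytes, 11 of 11 tested, had a median of -0.44, with lower values for 10. Of the 11, 9 were lower at an unadjusted p under 0.05, with 0 passing in limma after adjustment. Ptprc, the leukocyte antigen CD45, differed by -0.44 ± 0.082 and Lcp1 by -0.44 ± 0.077 (SE; limma adjusted p = 0.142 and 0.124). The mean of that list ran from 7.50 to 7.67 in control mice and from 6.99 to 7.34 in penicillin mice, with penicillin replicate 3 lowest. The part of leukocyte content in the differences of the 9 genes was not tested.

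T cell genes, 10 of 15 tested, had a median of -0.19, with 0 passing in limma and 4 lower at an unadjusted p under 0.05. Values were lower for 8 and higher for 2. Cd3g and Cd3d, the members with the largest test statistic, differed by -1.29 and -0.59, and Cd2, Cd5, Cd8b1 and Cd28 were too weak to test. The list mean ran from 5.74 to 5.86 in control mice and from 5.47 to 5.68 in penicillin mice. Macrophage and dendritic cell genes, 12 of 14 tested, had a median of -0.20, with 3 lower at an unadjusted p under 0.05 and 0 passing in limma. Values were lower for 8 and higher for 4, and the median was -0.12 both without the limit for weak genes and without control replicate 3. Itgax and Csf1r, with the largest test statistic, differed by -0.30 and -0.34, and the list mean overlapped between the groups, at 6.70 to 6.97 in control mice and 6.49 to 6.79 in penicillin mice.

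In the follicle epithelium and M cell list, 8 of 10 tested, the median was -0.28 and 0 passed in limma, with 2 lower at an unadjusted p under 0.05. Of the 8, 7 had lower values, and the median was -0.18 without the limit for weak genes and -0.15 without control replicate 3. Tnfaip2 and Aif1 differed by -0.49 and -0.38, while Gp2 and Sox8, which mark mature M cells, were under the limit. The list mean ran from 7.61 to 7.69 in control mice and from 7.28 to 7.55 in penicillin mice. Lymphoid stroma genes, 6 of 8 tested, had a median of -0.083, or -0.13 without control replicate 3, with 0 passing in limma and 2 lower at an unadjusted p under 0.05. Among them, 5 with lower values and 1 with a higher value, Tnfsf13b, which encodes BAFF, differed by -0.38 and Clu by -0.33.

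The epithelial lists served as a comparison. Paneth cell genes, 7 of 8 tested, had a median of -0.13 with 0 passing in limma and 3 lower at an unadjusted p under 0.05, all 7 had lower values, and Mptx1 and Pla2g2a differed by -1.09 and -0.62. Enterocyte genes, 10 of 11 tested, all had higher values, with a median of 0.20 and 0 passing in limma, and Fabp2 and Alpi differed by 0.27 and 0.67. Without control replicate 3 the median was 0.039, and Fabp2 and Alpi differed by 0.17 and 0.26. The enterocyte list mean was lowest in control replicate 3, at 11.9 against 12.4 to 12.9 in the other arrays. Of the colon list 5 of 8 were tested, with a median of -0.22, lower values for 4 and 0 passing in limma, and Ceacam1 and Aqp8 differed by -0.15 and -1.40. Aqp8 was at 8.27 in control replicate 3 and at 3.86 to 4.29 elsewhere, and without that array it and the list's median each stood at -0.0015.

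**Figure D4:**
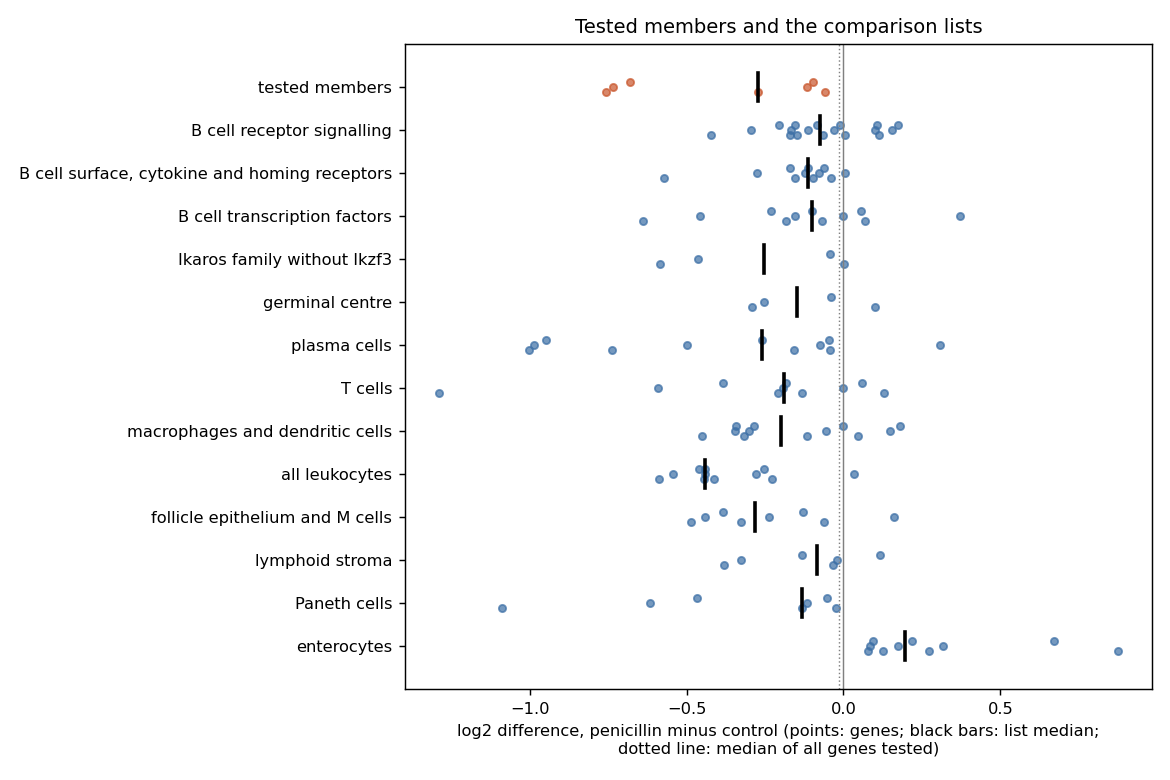
Log2 differences, penicillin minus control, of the 7 tested members (orange) and of the tested genes of 13 comparison lists (blue), with list medians as black bars and the median of all genes tested as a dotted line. The members fall into a cluster of 3 between -0.76 and -0.68 and a remainder at -0.27 or nearer to 0, and the list of genes made by all leukocytes has its median at -0.44.

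Across the 7 arrays, genes were ranked by how closely they followed Ikzf3, as a description of arrays that share the group difference. The 5 with the highest Pearson r were Zc3h12a (0.989), Itgae (0.989), Kazn (0.984), Tnfaip2 (0.981) and Il7 (0.978). They differed by -0.64, -0.65, -0.16, -0.49 and -0.45 in penicillin mice. Of these, Itgae was itself called lower in limma (adjusted p = 0.0232), and the others were not called. Lower values and groups apart follow largely from picking genes that track Ikzf3, and are not separate evidence. Against the standardised mean of the other 6 tested members the 5 highest were Cdk2 (0.979), Ampd3 (0.979), Stat5b (0.972), Csnk1e (0.969) and 2300009A05Rik (0.963), with differences from -0.20 to -0.078. None of these 5 was among the 5 nearest to Ikzf3.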

How the data were processed

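The 7 arrays gave log2 expression values per probe set, which the authors made with RMA (background correction, equalised distributions, summary over probes) and affy, per the submitters' processing notes. No version or build is given in the sources used here. Of the deposited probe sets used, 56.5% had the same value in 2 or more arrays. Of 45101 probe sets 34958 named 1 gene in the platform annotation, and 34945 were used, 13 being the manufacturer's controls. Each gene was represented by its probe set of highest mean. The weakest genes, up to the 25th percentile of means (log2 4.59), were not tested, so that 13644 remained. The comparison used limma 3.58.1 under R 4.3.3 (lmFit, eBayes, two-sided), and a gene was called at a Benjamini-Hochberg adjusted p under 0.05. A second fit took all 34945 probe sets with no limit, and the code was tested on simulated data. The number of arrays limits the precision.

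The members and lists were chosen with earlier results of these data known. Named are all members, any called gene and the 2 with the largest statistic of each list, the Ikaros family, Pax5, Cr2, Cxcr5 and Jchain, and the 5 genes most like Ikzf3 or the other members. List genes too weak to test, Car1 and the genes of the array check were named after their values were seen. Alternatives were 2 normalizations, other limits for weak genes, averaged probe sets, other variance models, array weights, replicate number as a block, an adjusted p threshold of 0.1, each array left out, and, added after seeing the data, a fit without replicate 3 of both groups and the lists without control replicate 3. Figures were drawn with matplotlib 3.10.9.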

Additional observations from a re-analysis of the deposited data

Results flagged for a closer look

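Over the 4 penicillin mice, 63 sets of values (probe sets, genes and list means) were examined for a single mouse far from the others, and 5 were flagged, where chance flags about 1 in 20. The value that flags a mouse is its gap to the nearest of the others as a share of the group's range. In penicillin replicate 1 the weak Ikzf3 probe set 1453378_at was at log2 3.15 and the others at 3.45 to 3.47 (0.96). Tnfsf13b was at 6.89 there and at 7.10 to 7.13 in the others (0.87). In penicillin replicate 3 Basp1 was at 7.62 against 7.86 to 7.90 (0.86), and the mean of the lymphoid stroma list was at 7.32 against 7.43 to 7.45 (0.84). In penicillin replicate 4 Cxcr5, near the bottom of the scale, was at 4.09 against 3.62 to 3.70 (0.83).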

How the results depend on the processing

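Ikzf3, the 1 member called, differed by -0.93 to -0.28 over the 17 alternatives that tested it. No limit for weak genes, a trend and robust prior, an unmoderated statistic or a threshold of 0.1 cannot move that difference from -0.76. In limma 0 members were called with values quantile normalised again or arrays centred on their medians (Ikzf3 adjusted p = 0.0560 and 0.0578), with no limit for weak genes (0.0524), with probe sets averaged (0.188) or with a trend and robust prior (0.0519). There were also 0 with an unmoderated statistic (0.297) and without replicate 3 of both groups (0.131), where Cd22 turned to 0.0019. With the limit at the 50th percentile 0 were called, because Blnk was the only member still tested and Ikzf3 was left out. In those settings 3 members had an unadjusted p under 0.05, except 4 with no limit and 0 at the 50th percentile, where only Blnk was tested. Array quality weights called 2, Ikzf3 and Cd79b (adjusted p = 0.0025 and 0.0329), in a fit that called 5.67% of all genes.

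Over all genes 13 were called. The count was 7 with probe sets averaged, 0 with an unmoderated statistic (1238 at an unadjusted p under 0.05), 774 with array quality weights, 40 at an adjusted p threshold of 0.1 and 2 without replicate 3 of both groups. With each array left out in turn 0 to 15 genes, 0 to 1 members and 1 to 22 probe sets were called, against 16 probe sets with all arrays. Small differences changed sign in those fits: Cd22 1419768_at ran from -0.14 to 0.0078, Cd22 1419769_at from -0.074 to 0.0026, Cd37 1419206_at from -0.19 to 0.0099, Ms4a1 1450912_at from -0.16 to 0.045 and Ikzf3 1453378_at from -0.062 to 0.057. The causes of these changes were not tested.

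With the replicate number as a block limma called 0 genes (803 at an unadjusted p under 0.05), 0 members and 0 probe sets (1988 at an unadjusted p under 0.05), and Ikzf3 differed by -0.76 (adjusted p = 0.565). The labels do not say that a number pairs mice. Same-numbered arrays had correlations of -0.16, 0.0030 and -0.42 between their deviations from the group means. Compared with the other group, 0 of 7 arrays correlated best with its own number. Penicillin replicate 4 could not match, as no control has its number. For the same reason the block's difference for Ikzf3 was that of the fit without penicillin replicate 4.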
